A study of Sparus aurata with 53 samples.

Results

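The first 3 h of the light phase were described by setting 6 whole larvae of the gilthead sea bream (Sparus aurata) sampled at zeitgeber time 3 h (ZT3) against 6 sampled at 0 h (ZT0), when the light came on. Both groups were untreated larvae of 30 days post hatching from the same cultures, kept at constant temperature with the light on for 12 h of each day and fed Artemia nauplii to satiety. They are 12 of the 53 arrays of a day sampled every 3 h, with 6 larvae per sampling time and 5 at 12 h. They were chosen by the zeitgeber time in their labels, and every non-control probe was kept, so that 13940 probes were compared. Each array carried RNA of 1 larva, labelled with 1 dye. The larvae were separate animals, taken by the paper's account from several tanks with more than 1 larva per tank. The labels do not give the tank of a larva, so the fit could not take it into account. The p-values measure the spread between larvae, pooled over all sampling times. RNA came from the whole body, in which fewer cells of a type and less RNA per cell cannot be told apart. The whole body includes the gut and any prey in it, and RNA of prey was not told apart from that of the larva.

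The vertebrate clock is a feedback loop in which the transcription factors CLOCK and BMAL1 switch on the period and cryptochrome genes, whose proteins then repress CLOCK and BMAL1. In fish, light reaches the clock in many tissues directly, and in zebrafish some period and cryptochrome genes are induced by light itself. Immediate early genes such as c-fos are transcribed within minutes of many stimuli, light among them. Sea bream larvae feed mainly by sight.

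All levels below are log2 signals relative to the 75th percentile of the same array, and a difference is ZT3 minus ZT0. The 75th percentile itself lay at 168, 314 and 504 fluorescence units in ZT3 larvae (lowest, median and highest) and at 191, 286 and 424 in ZT0 larvae. As the scanner software judged it, the share of probes well above background ran from 74.7% to 94.3% over the ZT3 larvae and from 79.3% to 88.2% over the ZT0 larvae. Pairs of arrays correlated across probes with a median Pearson's r of 0.964 within ZT3 and 0.976 within ZT0, where probes are not independent replicates. The ZT3 and ZT0 larvae of one number lay on the same slide, so that each of 6 slides held a larva of both groups. Marker descriptions for muscle, gut and pancreas, liver and blood matched 0 probes. The labelled whole-body origin could therefore be looked at only through 4 probes matched for the eye and 1 for skin (a keratin). Of these, 0 passed the test between ZT3 and ZT0, which does not bear on the origin. Among the eye probes were the cone and rod phosphodiesterase subunits and alpha-crystallin B chain, which the lists below count as a chaperone. All of these were well above background in 12 of 12 larvae. The remaining eye probe, C2_14036, is not described further.

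Few probes passed the test in these 3 h, and most of those were higher at ZT3. In a limma fit of all 53 arrays with Benjamini-Hochberg adjustment over all probes, 38 probes, or 0.273%, had an adjusted p under 0.05. Of these, 31 were higher at ZT3 (0.222%) and 7 were lower (0.0502%). At an unadjusted p under 0.05 there were 880 probes (6.31%), 637 higher (4.57%) and 243 lower (1.74%). The median difference over all probes was 0.05, with a 5th percentile of -0.34 and a 95th of 0.76, and the 31 probes that rose did so by 0.73 to 10.26.

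Values not well above background have no order, so a separation was counted only where all 6 larvae of the higher group were well above background. So counted, the larvae of the 2 groups did not overlap at 10 of the probes that rose and at 4 of those that fell. Over all probes this held at 42 with ZT3 above (0.301%) and at 26 with ZT3 below (0.187%), and with values at background included at 66 (0.473%) and 27 (0.194%). Within slides, 12 of the 31 probes that rose had a ZT3 larva both higher and well above background on 6 of 6 slides, 16 on 5, 1 on 4 and 2 on 2, while 6 of the 7 that fell were lower at ZT3 on all 6 slides and 1 on 5. Once the slide was added to the fit as a block, 76 probes passed (0.545%), among them all 38.

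**Figure D1:**
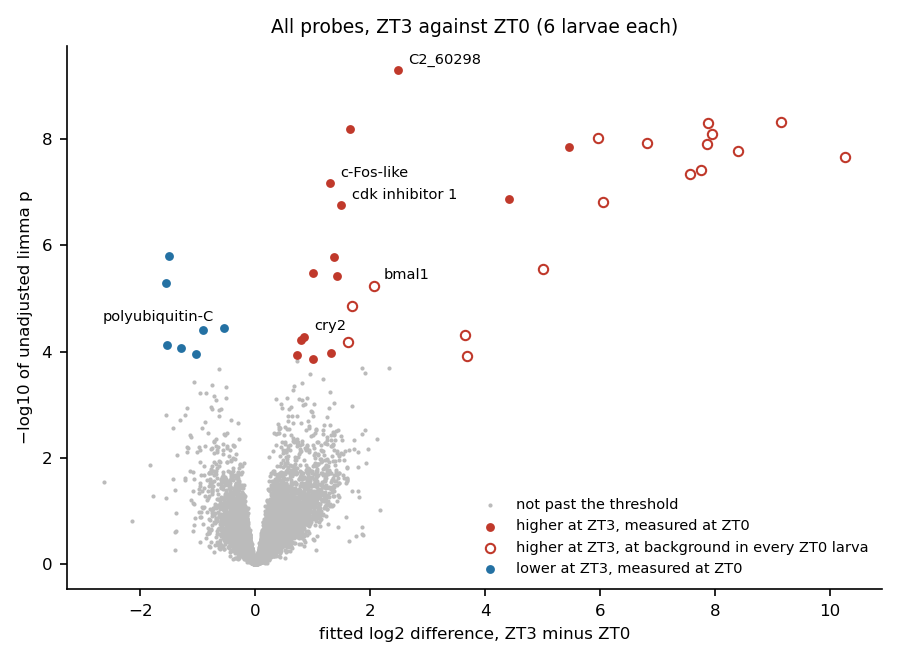
Each point is 1 of 13940 probes, with the fitted log2 difference ZT3 minus ZT0 on the x axis and the negative log10 of the unadjusted limma p on the y axis, from 6 larvae per group. Filled red points are probes that rose and were well above background in 4 or more ZT0 larvae, open red points are probes that rose and were at background in every ZT0 larva, and blue points are the 7 that fell. The points far to the right, up to 10.26, are nearly all open.

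The paper states that the genes of this array were all annotated, but here a description was tied to only 277 clone codes. A supplementary list of the paper prints gene names with fold changes over the day but without codes. Probes were not matched to these names by their course, so probes left undescribed here may be named there. Of the 38 probes, 7 belong to clones with a description tied here, 6 of which rose and 1 of which fell. Among all 277 described clones the median difference was 0.07. The c-Fos-like clone (C3_c18240), an immediate early transcription factor subunit, stood at 1.83, 1.99 and 2.24 in ZT3 larvae, against 0.30, 0.50 and 1.41 in ZT0 larvae. All 6 ZT3 larvae lay above the highest ZT0 larva, and they lay closer together than the ZT0 larvae did. It rose by 1.30 (SE 0.20, adjusted p = 6.78e-05), a 2.46-fold change, and was higher on 6 of 6 slides.

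Cyclin-dependent kinase inhibitor 1 (C2_1055), which can halt the cell cycle, stood at 2.20, 3.01 and 4.13 in ZT3 larvae, against 1.33, 1.66 and 1.71 in ZT0 larvae. The groups did not overlap, and the spread was wider at ZT3. It rose by 1.50 (SE 0.24, adjusted p = 0.000146), a 2.82-fold change. This was early in a longer course, since its median level went on to 5.65 at 12 h. Fitted on the 12 arrays alone, it did not pass.

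Nuclear receptor coactivator 7 (C2_45763) stood at -3.40, -2.60 and -1.81 in ZT3 larvae, against -4.47, -4.12 and -3.27 in ZT0 larvae. The lowest ZT3 larva and the highest ZT0 larva crossed, both of them number 4 on the same slide, and on the other 5 slides the ZT3 larva was higher. It rose by 1.37 (SE 0.25, adjusted p = 0.00122) and did not pass in 3 of 23 alternative fits, its difference being 0.41 at the lowest. COQ10 homolog B (C2_18271), a mitochondrial protein that binds coenzyme Q for the respiratory chain, stood at 0.14, 0.51 and 1.21 in ZT3 larvae, against -0.30, -0.26 and -0.07 in ZT0 larvae. Every ZT3 larva lay above every ZT0 larva. It rose by 0.79 (SE 0.18, adjusted p = 0.0276) and its median level was highest at 12 h, at 1.97. It did not pass in 9 of 23 alternative fits.

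Polyubiquitin-C (C2_6115), a source of the ubiquitin that tags proteins for the proteasome, was the described clone that fell. It stood at 3.49, 3.92 and 4.10 in ZT3 larvae, against 4.09, 4.43 and 4.82 in ZT0 larvae, and the groups touched at their edge. It fell by 0.55 (SE 0.12, adjusted p = 0.0190), was higher on 1 of 6 slides, and did not pass in 8 of 23 alternative fits. Its median level turned after ZT3 and was highest at 15 h, at 5.41.

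**Figure D2:**
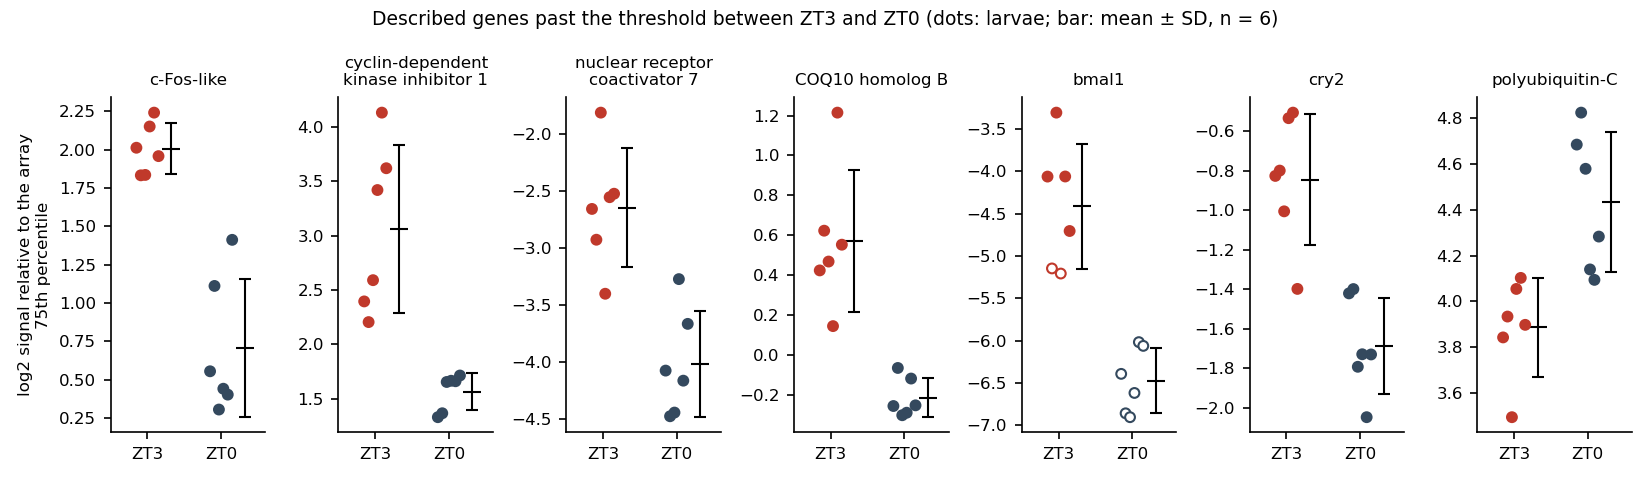
The y axis of each panel is the log2 signal relative to the 75th percentile of the array and each dot is 1 larva, ZT3 in red and ZT0 in dark, with the mean ± SD (n = 6) beside it. Open dots are not well above background. The y axes differ between panels. Dots of both groups overlap for nuclear receptor coactivator 7 and polyubiquitin-C, and all 6 ZT0 dots of bmal1 are open.

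Of 10 clock clones, 2 rose, 0 fell and 8 did not pass, and 5 were higher at an unadjusted p under 0.05. Over all probes the shares that rose and that were higher at this unadjusted p were 0.222% and 4.57%, and among the 277 described clones 6 and 38 did so. The clock clones' median difference was 0.53, beside 0.05 over all probes. The study chose most of its described clones, these among them, on these same larvae, so the counts of this list and those that follow are not independent evidence. Bmal1 (C2_16398), the partner of CLOCK in the positive limb, stood at -5.21, -4.38 and -3.31 in ZT3 larvae, against -6.90, -6.50 and -6.02 in ZT0 larvae. It was well above background in 4 of 6 ZT3 larvae and in 0 of 6 ZT0 larvae, so that the ZT0 values are bounds with no order among them. The fitted difference was 2.06 (SE 0.40, adjusted p = 0.00332), a value that rests in part on levels at background in both groups.

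The difference for bmal1 (C2_16398) did not pass after a normexp background correction or after setting a floor under the background-subtracted signal, and was 0.23 at its lowest over the alternative fits. Its median level was highest at 9 h, at -3.61.

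Cryptochrome 2 (C2_63385), a repressor of CLOCK and BMAL1, stood at -1.40, -0.81 and -0.50 in ZT3 larvae, against -2.05, -1.73 and -1.40 in ZT0 larvae. The groups lay side by side without overlap, by a narrow margin. It rose by 0.84 (SE 0.19, adjusted p = 0.0251), a 1.79-fold change, but did not pass in 11 of 23 alternative fits. Cryptochrome 1 (C2_13248), the other repressor of the pair, stood at 1.23, 1.85 and 2.23 in ZT3 larvae, against 0.70, 1.05 and 1.55 in ZT0 larvae. The groups overlapped, while within slides the ZT3 larva was higher on 6 of 6. Its difference of 0.64 (SE 0.19) had an adjusted p of 0.267, and of 0.0151 with slide as a block.

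The remaining clock clones did not pass. Period 1 (C2_21343), a repressor of the same limb, stood at -2.77, -2.32 and -1.81 in ZT3 larvae, against -3.17, -2.72 and -2.17 in ZT0 larvae, a difference of 0.43 (adjusted p = 0.854). Period 2 (C2_58904) was well above background in 3 of 6 ZT3 larvae and 0 of 6 ZT0 larvae, with a difference of 0.89 (adjusted p = 0.729). Clock (C2_26384) was so in 4 of 6 ZT3 larvae and 1 of 6 ZT0 larvae, with a difference of 0.80 (adjusted p = 0.777). Both therefore lay near the limit of what the arrays measured.

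Period 3 (C2_44391) had a difference of -0.35 (adjusted p = 0.965) and cryptochrome DASH (C2_8882), a relative of the photolyases, one of 0.38 (adjusted p = 0.866). ROR-gamma (C2_53107), a nuclear receptor that in mammals drives transcription of bmal1, had a difference of 0.26 (adjusted p = 0.983). Nocturnin (C2_4674), a phosphatase with a daily rhythm in vertebrates, had one of -0.01 (adjusted p = 1.00). Over the whole day, the median level was highest at 3 h for 6 of the 10 clock clones, namely cry1, cry2, per1, per2, cryptochrome DASH and ROR-gamma, of which per2 was well above background at 3 h in 3 of 6 larvae.

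**Figure D3:**
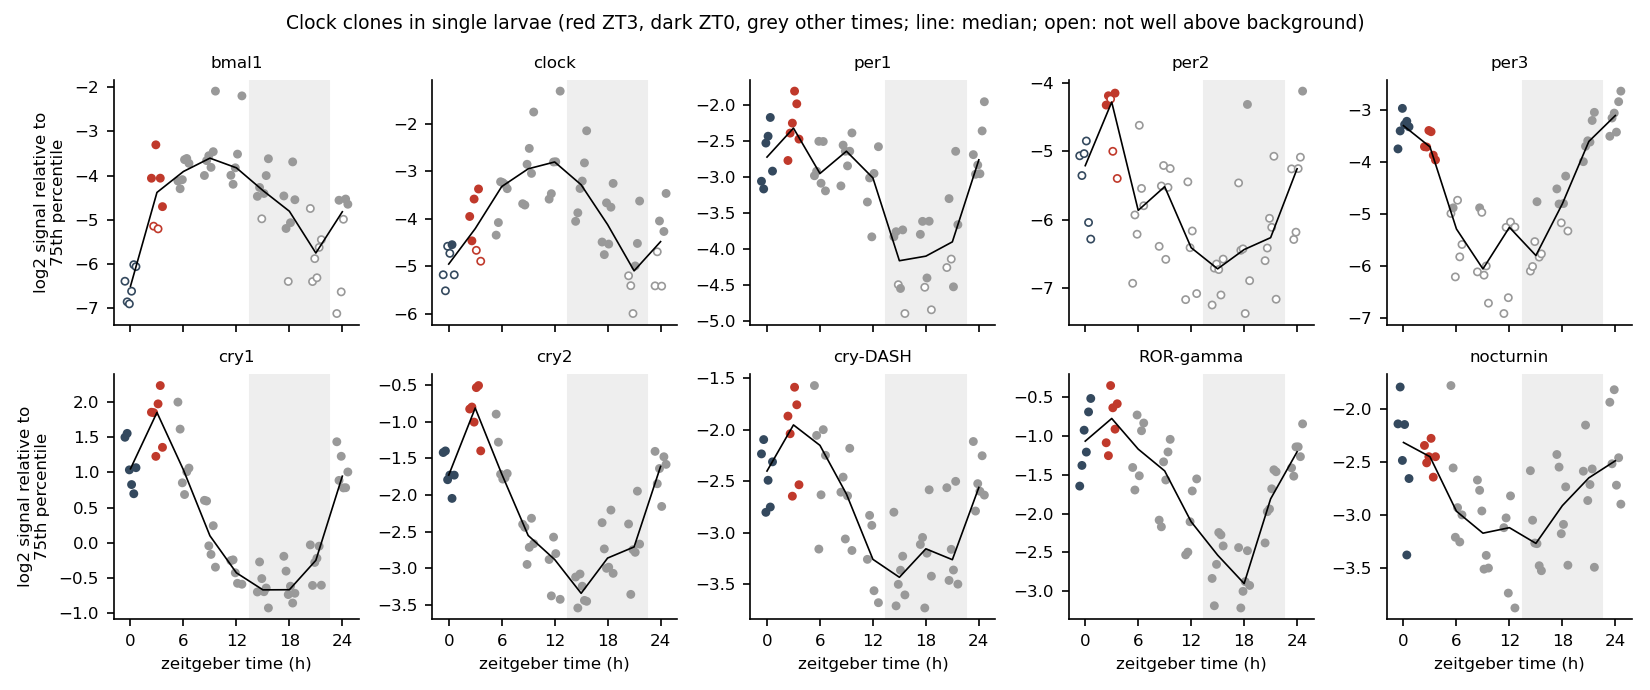
Each panel gives 1 clock clone, with zeitgeber time in hours on the x axis, the log2 signal relative to the 75th percentile of the array on the y axis, 1 dot per larva and a line through the medians. ZT0 is dark, ZT3 red and the other times grey, open dots are not well above background, and shading marks the sampling times inside the dark phase. For cry1, cry2 and per1 the line is highest at 3 h, and for bmal1 at 9 h.

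The largest differences of the comparison came from clones to which no description was tied here. A set of 14 such probes was formed after their values were seen. Its members had passed the test as higher at ZT3, carried codes that begin with C3 and were not well above background in any of the 6 ZT0 larvae. These traits were the terms of choice and are not results. In ZT3 larvae, 14 of 14 were well above background in 5 of the 6, and 0 of 14 in larva 4. Of the 38 probes past the test 23 were coded C3, 22 of them higher, while 2110 of all probes carry such a code. The files do not say what the code stands for. Whether the 14 probes read RNA of the larva or of prey in its gut was not tested.

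The fitted differences of these 14 probes ran from 3.64 to 10.26, with a median of 7.66, and their adjusted p from 2.19e-05 to 0.0453. The fit takes 1 spread per probe for all sampling times, which was not so here. For C3_c29376 the SD was 4.76 at ZT3 and 0.52 at ZT0, where all values were at background. The adjusted p of these probes are therefore only rough. Against the floor of the ZT0 arrays the 14 probes were between at least 6.48-fold and at least 614-fold higher, with a median bound of 93.5. The floor is, for each array, the higher of the probe's own value and the lowest signal of any probe well above background, and the ZT3 mean includes larva 4 at its measured value, which is itself at background. The brightest, C3_c29376, had a level of 4.06 to 6.00 in the 5 ZT3 larvae and of -6.40 in larva 4, and it lay between -7.89 and -6.51 in ZT0 larvae. Values at background have no order, so that larva 4 does not differ measurably from the ZT0 larvae at this probe. Without larva 4 the differences of the 14 probes ran from 4.25 to 12.18.

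Larva 4 carried the lowest share of probes well above background of the 12 arrays, 74.7%, and the lowest 75th percentile, 168. Whether the array's brightness had a part in its 0 of 14 was not tested. C3_c33426, well above background in all 12 larvae and picked out after its values were seen, stood at 4.03 to 6.45 in the other 5 ZT3 larvae, at -0.29 in larva 4 and between -1.96 and -0.48 in ZT0 larvae, a fitted difference of 5.46 (adjusted p = 2.19e-05).

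Over the day, too, single larvae had either most or few of the 14 probes above background. At 6, 9 and 12 h, between 11 and 14 of them were well above background in every larva. At 15, 18 and 21 h, inside the dark phase, no larva had more than 5. At 24 h, 4 of 6 larvae had 0, while larva 5 had 14 and larva 6 had 13. The median level over the 14 probes was -6.33 in ZT3 larva 4 and between -0.38 and 3.47 in the other ZT3 larvae, against -7.67 to -6.79 in ZT0 larvae.

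**Figure D4:**
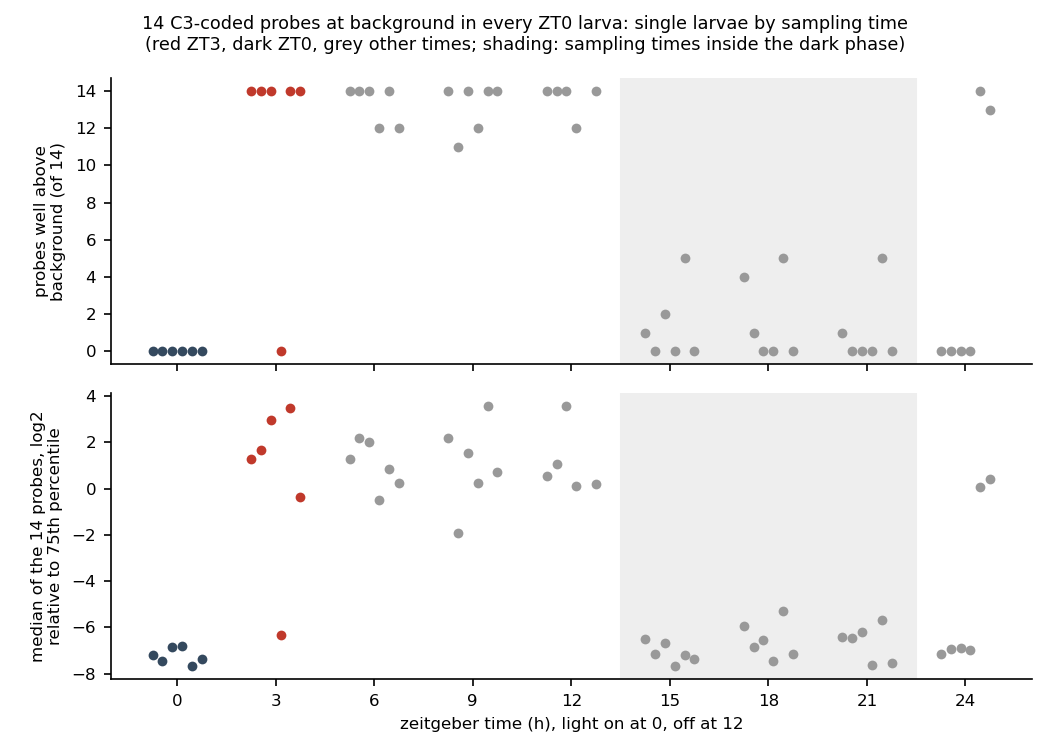
Each dot is 1 larva at its zeitgeber time in hours, with the number of the 14 C3 probes well above background in the upper panel and their median log2 signal relative to the 75th percentile of the array in the lower one. ZT0 is dark, ZT3 red, the other times grey, and shading marks the sampling times inside the dark phase. Of the ZT3 larvae 5 have 14 probes and 1 has 0. All 6 ZT0 larvae have 0 because the probes were chosen so. No larva of any time has between 6 and 10.

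A further 3 probes that rose were at background in every ZT0 larva but carry other codes, namely bmal1, C2_6474 and AM958128. Of the other 14, 13 were well above background in all 6 ZT0 larvae and C3_c38744 in 4 of 6, and the 14 rose by 0.73 to 5.46. Of these, C2_60298 had the smallest p of the comparison (this clone was picked out after its values were seen). It stood at -0.41, 0.12 and 0.69 in ZT3 larvae, against -2.69, -2.40 and -1.76 in ZT0 larvae, with no overlap. It rose by 2.47 (adjusted p = 7.10e-06), a 5.56-fold change, and passed in 23 of 23 alternative fits.

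To the 4 probes that fell without overlap no description was tied here, as their codes were not printed beside a name and courses were not matched to names. C3_c4691 stood at -1.30, -0.55 and 0.05 in ZT3 larvae, against 0.60, 0.98 and 1.25 in ZT0 larvae, and fell by 1.56 (SE 0.30, adjusted p = 0.00309). C2_21331 stood at 1.31, 2.00 and 2.12 in ZT3 larvae, against 3.09, 3.40 and 3.73 in ZT0 larvae, and fell by 1.51 (SE 0.27, adjusted p = 0.00122). Both were lower at ZT3 on every slide.

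C2_93417 and C2_36974 fell by 1.30 (adjusted p = 0.0360) and 1.04 (adjusted p = 0.0444), and did not pass in 13 and 12 of 23 alternative fits. Of the 7 probes that fell, 5 had their highest median of the day at 21 h. Of the 31 that rose, 17 had their highest median at 3 h itself, 4 at 6 h, 5 at 9 h, 3 at 12 h and 2 in the dark phase. Of the 17, C2_6474 and AM958128 were well above background in 2 of 6 ZT3 larvae each. The 31 were picked for a higher level at ZT3, so a highest median there is partly fixed in advance. The share among all probes was not counted. Most of the 17 belong to the set of 14 C3 probes, which moved together and are not separate cases. Within that set, C3_c29376 kept its medians between 4.56 and 4.75 from 3 to 12 h, which shows no distinct peak.

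Immediate early and related factors were 3 clones, of which 1 (c-Fos-like) rose and 2 did not pass, with a median difference of -0.09. Protein max (C2_4242), the partner of Myc, had a difference of -0.14 (adjusted p = 0.901), and the Myc-1-like clone one of -0.09 (adjusted p = 1.00). Of 19 clones of the G2/M list 18 did not pass, with a median of 0.08. The 1 that rose was cyclin-dependent kinase inhibitor 1, whose action is not confined to this part of the cell cycle. Of 21 clones of G1/S and replication 0 passed, with a median of 0.04. Ribonucleotide reductase (C2_4245), which makes the building blocks of DNA, stood at 1.26 to 1.64 in ZT3 larvae, against 0.55 to 1.23 in ZT0 larvae, and missed the threshold (adjusted p = 0.481).

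DNA repair and checkpoint clones (0 of 13 passed) had a median of 0.12, and ribosome biogenesis clones (0 of 15) one of 0.04. The XP-C repair protein (C2_12300), which finds damage from ultraviolet light, had a difference of 0.51 (adjusted p = 0.443). Of 21 clones of the proteasome and ubiquitin 1 fell, polyubiquitin-C, and 20 did not pass, with a median of 0.01. Of 7 apoptosis clones 0 passed, with a median of 0.09. Bcl-2-like protein 14 (C2_8898), named a facilitator of apoptosis, stood at -1.13, -0.99 and -0.42 in ZT3 larvae, against -2.15, -1.73 and -1.16 in ZT0 larvae. The groups lay next to each other without overlap, and its difference of 0.80 had an adjusted p of 0.114, and of 0.0105 with slide as a block.

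Nutrient metabolism held 21 clones, of which 0 passed, and the median was 0.21. A positive difference was found for 18 of them (85.7%, beside 60.2% of all probes and 66.1% of described clones). Such a share was not particular to this list. It was 93.3% for ribosome biogenesis and 84.6% for DNA repair and checkpoint, and ran from 33.3% to 100% over the lists. The larvae did not overlap at 4 of the 21 nutrient metabolism clones, beside 16 of the 277 described clones and 93 of all 13940 probes, values at background included. Cytosolic sulfotransferase 3 (C2_2270) stood at -1.32, -1.04 and -0.83 in ZT3 larvae, against -1.91, -1.59 and -1.35 in ZT0 larvae, a difference of 0.56 with an adjusted p of 0.367, and of 0.0215 with slide as a block. Membrane transport held 14 clones, of which 0 passed, with a median of 0.06. The mitochondrial carrier SCaMC-2-A (C2_81283), an ATP and phosphate exchanger, had a difference of 0.89 with an adjusted p of 0.180, and of 0.0289 with slide as a block.

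Of 14 chaperones 0 passed, with a median of 0.03. The heat shock protein HSP70-1 (C2_15999), which refolds proteins under stress, stood at -0.70, 0.28 and 2.38 in ZT3 larvae, against -0.93, -0.62 and -0.14 in ZT0 larvae. The ZT3 larvae spread widely and overlapped the ZT0 larvae, and the difference of 1.34 (SE 0.46) had an adjusted p of 0.454. Antioxidant and stress clones (0 of 9) had a median of 0.09, and calpains (0 of 2) one of 0.15. Growth and neuromuscular clones (0 of 16) had a median of -0.03.

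Of 3 uncoupling protein clones 0 passed, with a median of -0.23. Uncoupling protein 3 (C2_22601), a carrier of the inner mitochondrial membrane, stood at -0.65, 0.21 and 0.75 in ZT3 larvae, against 0.19, 1.03 and 1.89 in ZT0 larvae, a difference of -0.96 (adjusted p = 0.731). The 2 phototransduction clones, subunits of the cone and rod phosphodiesterases that turn light into a nerve signal, had differences of 0.44 and 0.28 and did not pass.

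**Figure D5:**
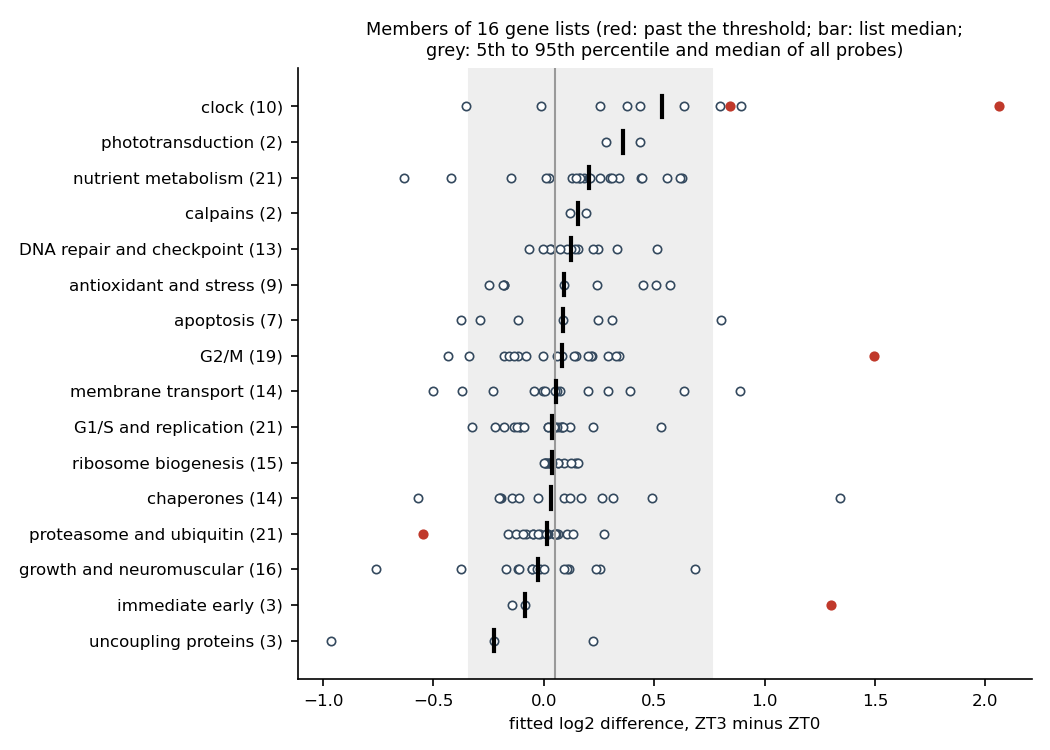
Each dot is 1 clone of 1 of 16 gene lists, with the number of clones in brackets, placed by its fitted log2 difference ZT3 minus ZT0. Red dots passed the test, bars are list medians, and the grey band spans the 5th to the 95th percentile of all probes, -0.34 to 0.76. The clock list has the highest median, 0.53, and 2 of the 5 red dots.

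Larvae taken 1 day after ZT0, at 24 h, gave a second group at lights on, and they share the ZT3 larvae with the comparison above. Between ZT3 and 24 h 35 probes passed (0.251%), 28 higher and 7 lower at ZT3. Nuclear receptor coactivator 7 (C2_45763) differed by 1.38 (adjusted p = 0.00417), cryptochrome 2 (C2_63385) by 0.84 (adjusted p = 0.0275) and cyclin-dependent kinase inhibitor 1 (C2_1055) by 1.12 (adjusted p = 0.0240). C-Fos-like (C3_c18240) differed by 0.77 (adjusted p = 0.135) and bmal1 (C2_16398) by 1.00 (adjusted p = 0.652), and neither passed. At 24 h, bmal1 exceeded background in 3 of 6 larvae. The count fell to 9 without ZT3 larva 3, to 13 without larva 1 and to 16 without larva 2.

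The first 3 h of light were also set against the first 3 h of dark, from 12 h to 15 h, by a test of the difference between the 2 steps. The steps differed at 116 probes (0.832%), 67 with a positive (0.481%) and 49 with a negative difference (0.352%). Several clones named next were chosen by their difference between ZT3 and ZT0. That difference is part of this one, so their results are partly fixed in advance. For c-Fos-like (C3_c18240) the step was 1.30 in the light and -0.77 in the dark, a difference of 2.07 (adjusted p = 5.27e-06). For nuclear receptor coactivator 7 (C2_45763) it was 1.37 in the light and -1.66 in the dark, a difference of 3.03 (adjusted p = 6.37e-08). For polyubiquitin-C (C2_6115) it was -0.55 in the light and 0.33 in the dark, a difference of -0.88 (adjusted p = 0.00223). Among the clock clones the steps differed for bmal1 (C2_16398) by 2.80 (adjusted p = 0.00435), for period 1 (C2_21343) by 1.50 (adjusted p = 0.0312) and for cryptochrome 2 (C2_63385) by 1.14 (adjusted p = 0.0227).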

How the data were processed

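RNA of single larvae was hybridised to 1-colour arrays of a custom design for this species. The intensity values were deposited by the authors as output of Agilent Feature Extraction 11.5.1.1 (per the submitters' processing notes), in fluorescence units after background subtraction. The authors also deposited a table of log2 values, scaled to the 75th percentile and centred per probe, from which the values used here differed by a median of 0.00555 log2 units.

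Control spots (536 of 15744 per array) and spots marked as outliers (108 on the 12 arrays, which left 84 values missing) were left out in R 4.3.3 with the data.table package (1.17.8). The log2 intensity minus the 75th percentile of the array was averaged per probe. Differences were contrasts of a limma 3.58.1 fit of 9 group means (44 residual degrees of freedom), adjusted by Benjamini-Hochberg within each contrast at 0.05. No spot was saturated (a count of 0). The number of arrays limits the precision.

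Descriptions were taken from tables of the paper and its supplement, whose codes, partly read from page images, were kept where the probe's course followed the one printed beside the code. Those of ucp1 and ucp2 were not checked in this way. Names printed without a code were not matched to probes. Named probes were the clock clones, the 10 of largest difference per direction among those past the threshold without overlap, described probes past the threshold, and up to 3 clones of smallest p per list. The text also names others where it says so or to account for a count. Members and lists were chosen with earlier results of these data known. Alternatives were other background corrections and normalizations, a filter on dim probes, the 12 arrays alone, leaving out each larva, a block for slide, for scan day or for replicate number, a threshold of 0.01 and the methods' analysis of variance with Tukey's comparison. Normexp was run on the median spot signal, the mean signal not being used here. In data simulated for ZT3 against ZT0 over 13940 probes, 9, 36, 43 and 48 of 50 probes were recovered at log2 changes of 0.5, 1, 1.5 and 2, and 8 of 13740 unchanged probes passed. The simulated noise was independent and normal, with the same spread in all groups and no slide effect or background floor. These counts therefore do not cover probes at background or of unequal spread. Figures were drawn with matplotlib 3.10.9.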

Additional observations from a re-analysis of the deposited data

Results flagged for a closer look

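In 126 groups of 6 larvae at named probes, 11 values, on 6 larvae, stood far from the rest of their group. Chance gives about 1 in 20 for independent groups, which these are not, since the same larvae recur at every probe. At 4 of the C3 probes the value was that of ZT3 larva 4, with -6.40 for C3_c29376, -6.29 for C3_c57724, -6.38 for C3_c41564 and -6.09 for C3_c21277, all at background. The C3 probes moved together, so these 4 are not separate cases. Of the other ZT3 larvae, larva 3 had 1.31 for C2_21331, larva 2 had 1.64 for the calpain-8-like clone C3_c55605 and larva 1 had 2.53 for proteasome subunit beta type-2 (C2_4220). ZT3 larva 5 had -3.24 for homologous-pairing protein 2 (C2_2104), -3.53 for M-phase inducer phosphatase 1 (C2_10260) and 1.79 for the translocator protein (C2_60). ZT0 larva 5 had -2.88 for C2_13557, a 6-phosphofructo-2-kinase clone. These are log2 levels relative to the 75th percentile.

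The step of the first 3 h of light minus that of the first 3 h of dark differed, by the limma test of the difference itself, at 26 of 69 named probes, 19 positive and 7 negative. Over all probes, 116 of 13940 (0.832%) differed. Many named probes were chosen by their difference between ZT3 and ZT0, which is part of this one, so the count among them is partly fixed in advance. Among the C3 probes at background in ZT0 larvae the difference of the steps was 19.99 for C3_c29376, 18.41 for C3_c57724, 17.29 for C3_c41564, 16.70 for C3_c13181, 16.29 for C3_c35665 and 15.35 for C3_c53385. It was 16.03 for C3_c21277, 15.33 for C3_c29574, 14.03 for C3_c49261 and 12.38 for C3_c50673, all of them fitted values that include levels at background.

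Among described clones that passed between ZT3 and ZT0, the difference of the steps was 2.07 for c-Fos-like (C3_c18240), 1.89 for cyclin-dependent kinase inhibitor 1 (C2_1055), 3.03 for nuclear receptor coactivator 7 (C2_45763) and 0.99 for COQ10 homolog B (C2_18271). It was 2.80 for bmal1 (C2_16398), 1.14 for cryptochrome 2 (C2_63385) and -0.88 for polyubiquitin-C (C2_6115). Among clones that did not pass there, it was 1.50 for period 1 (C2_21343), 2.01 for SCaMC-2-A (C2_81283), 1.08 for cytosolic sulfotransferase 3 (C2_2270), -0.97 for transcription factor E2F4 (C2_10954) and -1.15 for M-phase inducer phosphatase 1 (C2_10260). Of the undescribed probes that fell it was -3.39 for C3_c4691, -2.88 for C2_21331, -2.77 for C2_93417 and -1.85 for C2_36974.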

How the results depend on the processing

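The main count was 38 probes (31 higher and 7 lower). Of the 38, 16 passed in every alternative fit that tested them, which was 22 or 23 fits per probe, while 0 changed direction in any. With a normexp correction 19 passed (17 higher and 2 lower), and the counts were 12 for ZT3 against 24 h, 38 for the difference of the light and dark steps and 2 for list members, in place of 35, 116 and 5. A filter on probes well above background in all larvae of a group left 10763 probes, 20 of the 38 among them, and 15 passed (10 higher and 5 lower). Higher probes were 66.7% of these, beside 81.6% of the main count. Fitted on the 12 arrays alone 27 passed (4 lower), with 2 list members, and after centring on the array median 3 list members passed. With slide as a block 76 passed (59 higher and 17 lower), with 9 list members, 67 for ZT3 against 24 h and 316 for the steps. Scan day as a block gave 11 lower probes. At a threshold of 0.01, 25 passed (2 lower), and the methods' analysis of variance with Tukey's comparison gave 85 (59 higher and 26 lower), all 38 among them. Where no value shows it, the cause was not tested.

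Leaving out 1 larva at a time gave 27 to 37 probes (24 to 32 higher, 2 to 9 lower), 3 to 5 list members, 9 to 35 probes for ZT3 against 24 h and 86 to 120 for the steps. Without ZT3 larva 4, 35 passed (30 higher and 5 lower).

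The replicate block gave 56 probes (11 lower), 85 for ZT3 against 24 h and 214 for the steps. Deviations of larvae of the same number, which lay on the same slide, correlated by 0.06 to 0.30 over probes. Pairs were taken only where every such correlation was over 0.1, which number 4 did not reach, so the numbers were not taken as pairs. Still, 5 of 6 ZT3 larvae correlated best with the ZT0 larva of their own number. The shared slide was part of the array layout, and the main fit did not include it. With slide as a block, 76 probes passed in place of 38.

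Signal over background limits bmal1, per2 and the 14 C3 probes at background in every ZT0 larva, whose ZT0 levels are bounds, and clock, which was well above background in 1 of 6 ZT0 larvae. The cause of larva 4's levels was not tested.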
